A study of Mus musculus with 11 samples.

Results

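Tob2 and Cdkn1b encode brakes on cell division, and both had been noted as higher in the colon of mice lacking TNFR1, the main receptor for the cytokine TNF. The genes described here are those 2 and 8 relatives: Tob1, Btg1, Btg2 and Btg3 of the same family as Tob2, and the inhibitors of cyclin-dependent kinases (CDKs) Cdkn1a, Cdkn1c, Cdkn2c and Cdkn2d. They are 10 of the 35683 genes in the deposited table, with 26 of its 113096 transcripts that have a gene. Tob2 and Cdkn1b were chosen from their values in the comparison of genotypes, so their difference there is described without a test. The 8 relatives were added by family, and the question is whether they were higher too.

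RNA was isolated from the whole wall of the colon of 2-week-old mice, 6 of genotype Tnfr1-/- and 5 wild type (WT), with 1 library a mouse. The labels give no strain, sex, litter or batch, so these could not be set against genotype, and they do not describe the allele beyond its name. Abundance is the deposited value, taken as transcript level per length (TPM) after scaling between libraries and summed over the transcripts of a gene. That unit is inferred, as no header states it, and under it abundance is comparable between genes. In RNA of a whole tissue, fewer cells of a type and less RNA per cell cannot be told apart.

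The labels were checked first on Tnfrsf1a, the gene of TNFR1, which lay between 19.01 and 28.03 in Tnfr1-/- and between 61.7 and 73.1 in WT. It was the 1 gene of 15079 tested that was called (0.00663%), lower by limma with an adjusted p of 8.5e-05 and a log2 fold change of -1.57 (SE 0.10). A call needed an adjusted p under 0.05. Markers of epithelium, smooth muscle, fibroblasts, leukocytes, neurons and glia, and endothelium were all above 0 in every library, as a full-thickness colon holds. WT replicates 1 and 2 stood apart from the other 9 libraries, with the highest summed epithelial markers (10848 and 12700, others 7234 to 10268) and the lowest scores of fibroblast markers. Skeletal muscle markers varied most, with summed levels of 516 to 7586 in Tnfr1-/- and 396 to 1629 in WT. They were higher on average in Tnfr1-/- in 7 of 7 genes (median log2 fold change 0.83, 0 called by limma and 0 at an unadjusted p under 0.05), with the highest scores in Tnfr1-/- replicates 2 and 5 (3.14 and 1.36).

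The TOB and BTG proteins bind the CCR4-NOT complex, which shortens the poly(A) tails of mRNAs, and most of them slow growth when overproduced. CDK inhibitors act on the protein kinases that drive the cell cycle. The CIP/KIP group (p21 from Cdkn1a, p27 from Cdkn1b, p57 from Cdkn1c) binds cyclin-CDK complexes, and the INK4 group (p18 from Cdkn2c, p19 from Cdkn2d) binds CDK4 and CDK6. In the gut, several of these genes are known for their expression in cells that have stopped dividing.

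In the deposited transcript values, 1 of the 3 Cdkn1b transcripts was higher in every Tnfr1-/- mouse, while the sum of the 3 was not. The gene (ENSMUSG00000003031, chr6:134920401-134925513, GRCm38, plus strand) lies 9.56 Mb from Tnfrsf1a on the same chromosome. It has a long transcript, ENSMUST00000067327.10 (4552 bases), that keeps an intron of 2159 bases in its 3′ untranslated region, chr6:134922084-134924242. The main spliced transcript, ENSMUST00000003115.8 (2393 bases), lacks that intron, and ENSMUST00000204807.1 (1757 bases) is a shorter spliced form. All 3 have the same coding sequence of 591 bases, and the intron begins 12 bases after its end. The bases at each end of the intron and at the join are shown because they are what separates the long transcript from the main spliced one. Capitals mark the GT and AG at the intron's ends, read from the GENCODE M21 transcripts of GRCm38.
Start of the kept intron, chr6:134922074-134922103: aacagctccgGTgggttaatgaggaagaac
End of the kept intron, chr6:134924223-134924252: ttcttttgtttcttttgcAGaattaagaat
Join in the main spliced transcript: acgtaaacagctccgaattaagaatatttc

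The long transcript was at 14.6, 15.1, 14.8, 13.4, 16.2 and 13.9 in Tnfr1-/- replicates 1 to 6, and at 9.74, 12.4, 8.66, 9.47 and 10.8 in WT replicates 1 to 5. Every Tnfr1-/- library lay above every WT library. The ratio of the means was 1.44 and the log2 difference 0.51. As a share of the gene's abundance it was 34.0% ± 2.18 in Tnfr1-/- (SD, n = 6) and 24.0% ± 3.55 in WT (SD, n = 5). These ranges did not overlap either, at 31.4% to 37.6% and 19.98% to 29.4%. Of all 33276 transcripts tested, 0.556% were higher in Tnfr1-/- without overlap, and since this contrast chose the gene nothing is read from that share.

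The other transcripts lay the opposite way on average, with overlapping groups. The main spliced transcript was at 15.0, 14.2, 13.8, 17.0, 17.8 and 21.5 in Tnfr1-/- and at 17.6, 15.8, 22.5, 20.6 and 20.3 in WT (log2 difference -0.23). For the shorter form the means were 12.04 ± 2.88 (SD, n = 6) and 13.0 ± 2.17 (SD, n = 5). Summed over the gene, Cdkn1b was at 41.4, 40.1, 45.4, 40.3, 47.8 and 44.3 in Tnfr1-/- and at 43.6, 42.1, 43.3, 40.9 and 42.7 in WT. The WT libraries thus lay inside the range of the Tnfr1-/- libraries. The log2 difference of the sum was 0.02, and it turned to -0.0085 without Tnfr1-/- replicate 5.

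What Cdkn1b shows depends on whether molecules or reads are added up, since a longer transcript yields more reads per molecule. Each transcript was therefore also weighted by its length less a fixed offset, a quantity that follows reads. So weighted, the gene was higher by a ratio of 1.11. The groups did not overlap, at 111 to 131 in Tnfr1-/- and 103 to 110 in WT (abundance times kilobases). This contrast chose the gene and the long transcript has the largest weight, so nothing is read from that lack of overlap. The library reads were 75 bases long and read from a single end. A read outside the kept intron and the junctions that differ between the transcripts fits more than 1 of them. The deposited values are the program's division of such reads, and the error of that division was not used here. The authors' deposited means were taken as natural logs of normalized estimated counts over both genotypes. By them the program assigned a typical library 1553 reads of the long transcript, 1112 of the main spliced one and 550 of the shorter form. These are estimates from the same division and not counts of reads that fit only 1 transcript.

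**Figure D1:**
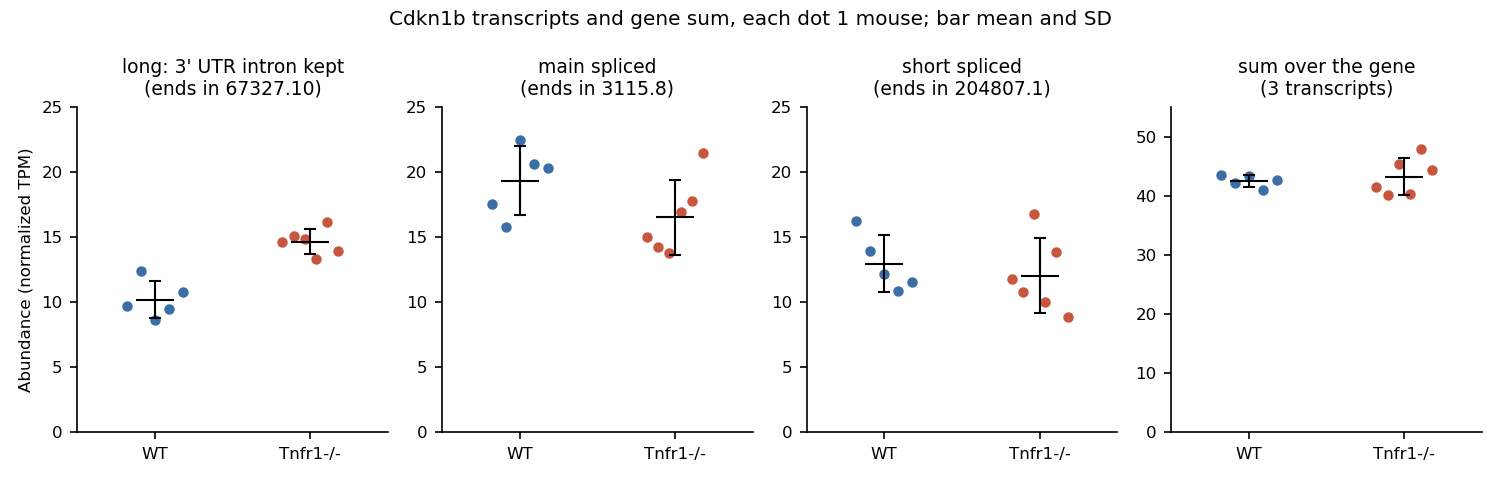
Abundance (normalized TPM) of the 3 Cdkn1b transcripts and of their sum, with 1 dot for each mouse and a bar for the mean and SD of 5 WT and 6 Tnfr1-/- mice. The long transcript that keeps the intron is higher in all 6 Tnfr1-/- mice (13.4 to 16.2) than in any WT mouse (8.66 to 12.4), while the sum over the gene overlaps (40.1 to 47.8 and 40.9 to 43.6).

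Tob2 was higher as a gene. It encodes a TOB protein that binds CCR4-NOT, and lies at chr15:81848272-81858796 on the minus strand (ENSMUSG00000048546). Its abundance was 18.4, 22.5, 19.2, 20.2, 21.2 and 18.8 in Tnfr1-/- replicates 1 to 6 and 13.5, 16.3, 13.5, 14.1 and 16.6 in WT replicates 1 to 5. The lowest Tnfr1-/- library was above the highest WT library, as for 0.723% of all genes tested, a share from which nothing is read because this contrast chose Tob2. The ratio of means was 1.36 and the log2 difference 0.43. One transcript of 2 exons, ENSMUST00000050467.8 (4151 bases), made up 97.9% of the gene in Tnfr1-/- and 97.4% in WT. Of the other 3 transcripts, 1 was listed at 0 in all libraries and the rest were at most 0.559.

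None of the relatives was called as different between genotypes. Since Tnfrsf1a was the 1 gene called, neither Tob2 nor the Cdkn1b sum was called. Of 8 relatives, all of which passed the filter on low values, 0 were called by limma, against 0.00663% of all genes. None reached an unadjusted limma p under 0.05 either (0 of 8, against 9.37% of all genes), and in 0 of 8 did the groups part without overlap, against 1.49%. With 8 genes, such counts are near the shares over all genes. They do not set the relatives apart from Tob2 or from other genes. By the log2 fold change 6 of 8 were higher and 2 lower, though by mean abundance Btg2 was lower (58.8 against 59.0). The sign of Btg1, Btg2, Btg3, Cdkn1c and Cdkn2d turned under at least 1 other setting or without 1 library. Their median log2 fold change was 0.07, beside -0.01 for all genes, of which 47.9% were higher in Tnfr1-/-. Limma adjusted p ran from 0.58 to 0.99. In 160 refits of these genes under 20 other settings, 0 were called, with adjusted p from 0.14 to 1.00.

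**Figure D2:**
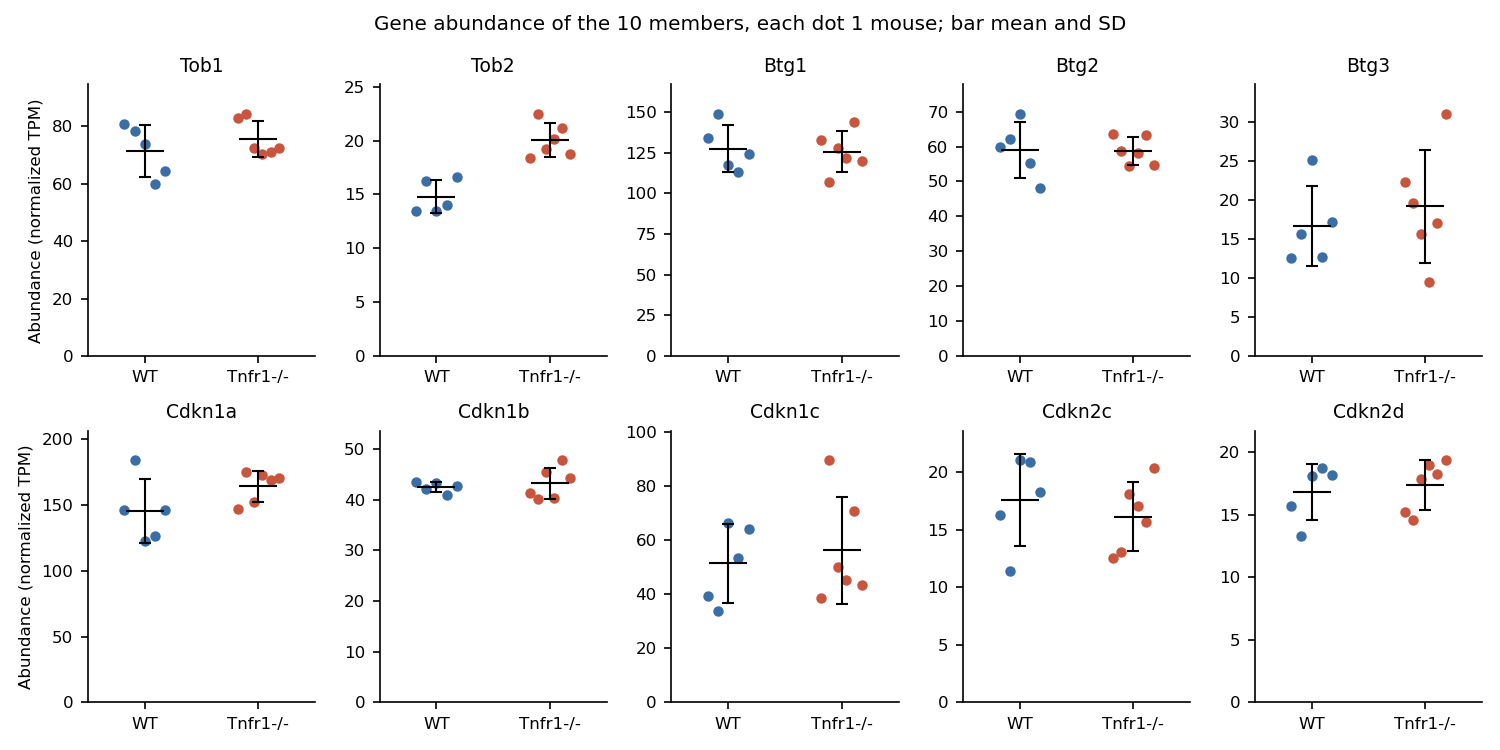
Abundance (normalized TPM) of the 10 genes, with 1 dot for each mouse and a bar for the mean and SD of 5 WT and 6 Tnfr1-/- mice. Tob2 is the 1 gene whose groups part (18.4 to 22.5 in Tnfr1-/-, 13.5 to 16.6 in WT); Btg3 and Cdkn1c spread widely within both genotypes.

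Among the TOB and BTG relatives, Tob1, the closest relative of Tob2, was at 70.5, 72.5 and 84.4 in Tnfr1-/- (lowest, median, highest) and at 80.7, 78.2, 73.9, 60.0 and 64.3 in WT. The groups overlapped over most of their range. Its fold change had a 95% interval of 0.93 to 1.21. The difference between the responses of Tob1 and Tob2 was not tested, because Tob2 was chosen from its own.

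Btg1, an antiproliferative gene of quiescent cells, was at 107, 125 and 144 in Tnfr1-/- (lowest, median, highest) and at 134, 149, 117, 113 and 124 in WT. Btg2, a known p53 target and early-response gene, was at 54.5, 58.4 and 63.5 in Tnfr1-/- and at 59.9, 62.3, 69.4, 55.1 and 48.1 in WT. For both genes the groups covered nearly the same values, with 95% intervals of the fold of 0.86 to 1.13 and 0.88 to 1.14. The 95% interval of Btg3 was wider, with values of 9.46, 18.4 and 31.1 in Tnfr1-/- and 12.6, 15.7, 25.2, 12.7 and 17.1 in WT (0.74 to 1.68).

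Among the CIP/KIP relatives, Cdkn1a came nearest to a difference. It encodes p21, the best-known p53-induced CDK inhibitor. Its abundance was 147, 169 and 175 in Tnfr1-/- (lowest, median, highest) and 146, 184, 123, 126 and 146 in WT. WT replicate 2 was the highest of all 11 libraries, and the other 4 WT libraries lay below every Tnfr1-/- library. Its limma adjusted p was 0.58 (unadjusted p = 0.078), for a log2 fold change of 0.19 (SE 0.10). Without WT replicates 1 and 2 it was 0.32, with a limma adjusted p of 0.14.

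The main Cdkn1a transcript, ENSMUST00000023829.6, was the 1 of 17 tested transcripts of the relatives with an unadjusted p under 0.05, against 8.26% of all transcripts. It was at 129 to 150 in Tnfr1-/- and 106 to 151 in WT, with a log2 fold change of 0.21 and, by limma over all transcripts, an adjusted p of 0.60 (0.045 before adjustment). In the authors' deposited table its p-value was 0.0447 and its q-value 1, and it was again the 1 of 17 with a p-value under 0.05, against 4.39% of all transcripts. By limma 0 of 17 were called (0.00902% of all transcripts), and 0 of 17 had an authors' deposited q-value under 0.05 (0.00201%).

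Cdkn1c encodes p57 and is an imprinted gene, expressed mainly from the maternal copy. It varied widely within each genotype, at 38.4, 47.7 and 89.5 in Tnfr1-/- (lowest, median, highest) and at 39.3, 33.9, 66.3, 53.4 and 63.9 in WT. Tnfr1-/- replicates 2 and 5 were the highest of that group, and the mean difference turned from 0.11 to -0.03 on the log2 scale without Tnfr1-/- replicate 2. The same 2 libraries had the highest skeletal muscle scores. The 95% interval of its fold was 0.74 to 1.57, so this gene bears little on the question.

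The INK4 relatives were low and overlapped. Cdkn2c was at 12.6, 16.3 and 20.3 in Tnfr1-/- (lowest, median, highest) and at 16.2, 11.4, 21.0, 20.8 and 18.2 in WT, with a fold interval of 0.72 to 1.20. Cdkn2d was at 14.6, 18.03 and 19.4 in Tnfr1-/- and at 15.7, 13.3, 18.1, 18.7 and 18.2 in WT, with a fold interval of 0.88 to 1.21. WT replicate 2 was the lowest library for both genes.

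**Figure D3:**
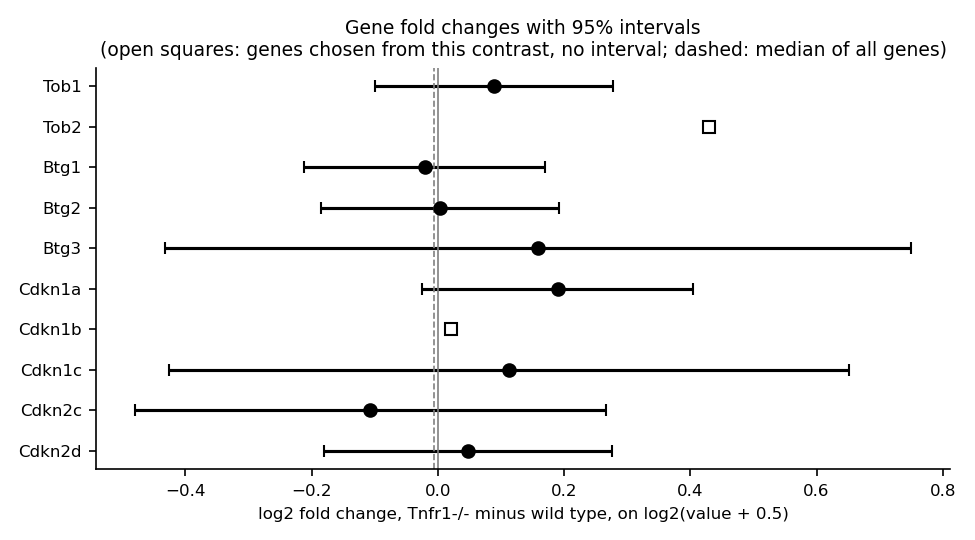
Log2 fold change of each gene, Tnfr1-/- minus WT, from 6 and 5 mice, with the 95% limma interval of the 8 relatives; open squares mark Tob2 and the Cdkn1b sum, chosen from this contrast and shown without an interval. The intervals of the 8 relatives all include 0.

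In WT colon the genes fell into 3 tiers of abundance. Cdkn1a (145 ± 24.3) and Btg1 (128 ± 14.4) were highest, above Tob1 (71.4 ± 8.93), Btg2 (59.0 ± 7.98), Cdkn1c (51.3 ± 14.5) and Cdkn1b (42.5 ± 1.06). Cdkn2c (17.5 ± 3.98), Cdkn2d (16.8 ± 2.27), Btg3 (16.7 ± 5.14) and Tob2 (14.8 ± 1.55) were lowest (SD, n = 5 each). The ranges of neighbours in this order overlapped except between Btg1 and Tob1 and between Cdkn1b and Cdkn2c. Tob2 was thus the least abundant member in WT, still above 52.6% of the genes tested, while Cdkn1a was above 94.4% of them.

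The members also differed in how much they varied between mice of 1 genotype. Cdkn1b was among the steadiest genes of the colon, with a smaller residual spread in 14.7% of the 11323 genes with a mean of at least 5. Btg3, Cdkn1c and Cdkn2c were among the most variable, where 94.6%, 93.7% and 86.2% of those genes spread less. Tob2, at 43.2%, was near the middle.

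Variation within genotype was set against a score of dividing-cell markers, the mean over 32 genes such as Tk1 and Cdc20 of each log2 value minus the gene's mean, with genotype means removed from both sides. Over 11 libraries, 0 of 10 relations passed an adjusted p of 0.05 (permutation test with 100000 resamples, Benjamini-Hochberg over 10). The nearest was Tob2, which was lower where dividing-cell markers were higher (Pearson r = -0.76, permutation p = 0.0073, adjusted p = 0.073; Spearman rho = -0.72, permutation p = 0.0157, adjusted p = 0.157). Without WT replicates 1 and 3, the farthest from the median score, r was -0.62 (permutation p = 0.079), and it was -0.44 within Tnfr1-/-. WT, with 5 libraries, has too few for a correlation. Its replicates 1, 3 and 4 had the highest dividing-cell scores of that group and the lowest Tob2 values (13.5, 13.5 and 14.1, against 16.3 and 16.6). Replicate 2 had the lowest score but not the highest Tob2 value, and nothing is read from so few libraries. The relation of Tob2 passed without Tnfr1-/- replicate 1 (adjusted p = 0.020) or replicate 2 (adjusted p = 0.018), by the same permutation test. With 1 library left out, r ran from -0.85 to -0.71. Over all 18 other settings it ran from -0.85 to -0.37, with permutation adjusted p from 0.018 to 0.58. The weakest r thus did not come from leaving out 1 library. It came from another setting of scaling, filter or pseudocount, or from leaving out WT replicates 1 and 2 together. The size of the relation depended on such a choice. Cdkn2c (r = 0.60) and Cdkn1a (r = -0.58) had permutation adjusted p of 0.20 each, and Cdkn1b had an r of 0.14.

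The INK4 genes and Cdkn1c varied between mice with marker scores of other genes. These relations were chosen after the data were seen: 8 marker scores against 10 genes, with 7 of 80 passing an adjusted p of 0.05 over all 80. Cdkn2c was lower where epithelial markers were higher (Pearson r = -0.91, permutation p = 0.00016, adjusted p = 0.0076; Spearman rho = -0.93, permutation p = 0.00016, adjusted p = 0.0128). The relation had an r of -0.94 within Tnfr1-/- and -0.93 without WT replicates 1 and 2, the farthest from the median (permutation p = 0.00012). Without WT replicate 2 alone, r was -0.84 and the permutation adjusted p 0.062. The epithelial markers were 10 of 10 lower in Tnfr1-/- on average, 1 of them at an unadjusted limma p under 0.05, with summed levels of 7234 to 10268 against 7871 to 12700. Without WT replicates 1 and 2, 9 of 10 were higher in Tnfr1-/- instead.

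Cdkn2d moved likewise. Its r with the epithelial score was -0.89 (permutation p = 0.00038, adjusted p = 0.0076; Spearman rho = -0.85, permutation p = 0.00182, adjusted p = 0.0485), and it was -0.85 within Tnfr1-/- and -0.83 without WT replicates 1 and 2 (permutation p = 0.0042; adjusted p = 0.070 over the 80). Without WT replicate 2 alone, the adjusted permutation p was 0.070 as well. Both INK4 genes were higher where markers of neurons and glia were higher, with an r of 0.90 for Cdkn2c (permutation adjusted p = 0.0076; Spearman rho = 0.82, adjusted p = 0.052) and 0.88 for Cdkn2d (permutation adjusted p = 0.0106; Spearman rho = 0.79, adjusted p = 0.074). Without WT replicate 2 these had permutation adjusted p of 0.070 and 0.11. Abundances are shares of 1 total, so the scores of different layers of the wall are not independent of each other.

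Cdkn1c was higher where other imprinted growth genes were higher. The score held 10 tested genes of the imprinted set, among them Igf2, Dlk1, Peg3, Plagl1 and Grb10, known for effects on fetal growth. Pearson r was 0.91 (permutation p = 0.00031, adjusted p = 0.0076) and Spearman rho 0.88 (permutation p = 0.00064, adjusted p = 0.0256). Within Tnfr1-/- r was also 0.91, and without WT replicates 1 and 2 it was 0.86 (permutation p = 0.0033; adjusted p = 0.070 over the 80). Without WT replicate 2 alone the permutation adjusted p was 0.062. These genes were 8 higher and 2 lower in Tnfr1-/-, with a median log2 fold change of 0.25, 0 called by limma and 1 (Dlk1) at an unadjusted p under 0.05. Without WT replicates 1 and 2, 5 were higher and 5 lower. Summed levels were 174 to 392 in Tnfr1-/- and 146 to 272 in WT.

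The remaining relations that passed involved fibroblast markers and rested on few libraries. Tob1 was lower where they were higher (r = -0.83, permutation adjusted p = 0.027; Spearman rho = -0.75, adjusted p = 0.096), and Cdkn2d higher (r = 0.78, permutation adjusted p = 0.049; Spearman rho = 0.82, adjusted p = 0.052). Without WT replicates 1 and 2 the permutation p was 0.051 and 0.12, and r was -0.68 and 0.56. Within Tnfr1-/- the r was -0.61 and 0.63.

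Skeletal muscle markers, those of a tissue next to the gut, moved with Tob2 and Cdkn1c without passing over the 80 relations. Tob2 was higher where they were higher (Pearson r = 0.73, permutation p = 0.0079, adjusted p = 0.070; Spearman rho = 0.65, permutation p = 0.038, adjusted p = 0.19). Its 2 highest libraries, Tnfr1-/- replicates 2 and 5, had the highest muscle scores; r was 0.94 within Tnfr1-/- and 0.57 without these 2 libraries (permutation p = 0.11). For Cdkn1c the Pearson r was 0.64 (permutation p = 0.030, adjusted p = 0.14) and Spearman rho 0.31 (permutation p = 0.36, adjusted p = 0.62). That r was 0.91 within Tnfr1-/- and -0.07 without the same 2 libraries (permutation p = 0.86). Other relations of Tob2 did not pass either. With smooth muscle markers its Pearson r was -0.64 (permutation adjusted p = 0.14) and Spearman rho -0.78 (permutation adjusted p = 0.076). That r was -0.72 within Tnfr1-/- and -0.84 without WT replicates 2 and 4, the farthest from the median (permutation p = 0.0048). With imprinted growth genes r was 0.38 (permutation adjusted p = 0.44), 0.92 within Tnfr1-/- and 0.75 without WT replicates 1 and 2 (permutation p = 0.017). The part of these scores in the genotype difference of Tob2 was not tested.

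**Figure D4:**
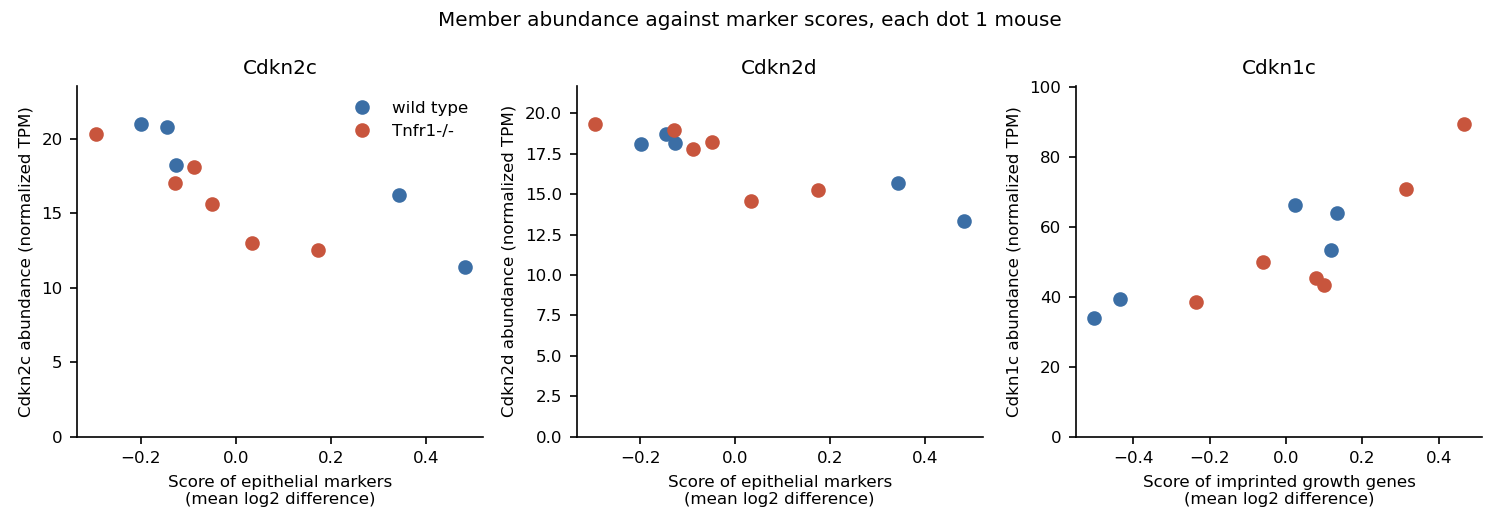
Abundance (normalized TPM) of Cdkn2c, Cdkn2d and Cdkn1c against marker scores (mean log2 difference from each gene's mean over 11 libraries), with 1 dot for each mouse coloured by genotype. Cdkn2c and Cdkn2d fall with the epithelial score (r = -0.91 and -0.89 with genotype means removed) and Cdkn1c rises with imprinted growth genes (r = 0.91).

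Genes whose variation was most like that of Tob2 within genotype, over 11 libraries and 10727 ranked genes, were Mfsd11 (r = 0.93), Mzt2 (0.89), Atp12a (0.88), Mrln (0.87) and Taf1c (0.87). For the Cdkn1b sum they were Sh3bgrl (r = 0.93), Tfb1m (0.92), Sp3 (0.91), Ireb2 (0.90) and Ly96 (0.90). The highest of so many correlations are high by selection, and they are given as a description.

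The genes that work beside the members were described from lists of 8 to 32 genes, and in all of these lists 0 genes were called by limma. For comparison, 4.2% of all genes were higher and 5.17% lower in Tnfr1-/- at an unadjusted limma p under 0.05. Dividing-cell markers were lower on average in 32 of 32 genes, with a median log2 fold change of -0.13 and 7 at an unadjusted limma p under 0.05. That count was 3 with columns rescaled to TPM, 4 without WT replicate 1 and 19 without WT replicate 2. Cdc20, an activator of the anaphase-promoting complex, had a mean of 22.9 ± 1.28 over Tnfr1-/- mice (SD, n = 6) against 28.8 ± 3.76 over WT mice (SD, n = 5; limma adjusted p = 0.31). Tk1, a thymidine kinase of dividing cells, was at 36.2 ± 1.71 and 42.8 ± 3.49 (limma adjusted p = 0.31). Summed over the list, levels were 883 to 978 in Tnfr1-/- and 897 to 1187 in WT, with WT replicate 1 highest and WT replicate 2 lowest of the WT libraries. The part of these markers in the values of Tob2 was not tested.

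Targets of p53, the tumour suppressor that induces Cdkn1a and Btg2, were higher in 15 of 20 genes (median log2 fold change 0.11). Of these genes, 3 were at an unadjusted limma p under 0.05, all higher (Trp53inp1, Polk and Eda2r). In the same 3 of 20 the groups did not overlap, against 1.49% of all genes. Trp53inp1, which promotes p53 activity, had a mean of 26.6 ± 2.11 over Tnfr1-/- mice (SD, n = 6) against 20.2 ± 2.36 over WT mice (SD, n = 5), without overlap (23.9 to 29.8 and 17.0 to 22.6, limma adjusted p = 0.29). Polk, a DNA polymerase that copies past damage, was at 5.01 ± 0.40 and 4.13 ± 0.13 (limma adjusted p = 0.34), and Eda2r, a receptor of the TNF receptor family, at 1.47 ± 0.47 and 0.855 ± 0.21 (limma adjusted p = 0.42). The death receptor Fas lay the other way, at 9.18 ± 0.68 and 10.7 ± 1.88 (limma adjusted p = 0.57).

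FOXO factors and their targets, the pathway known to induce Cdkn1b when growth signals are low, were higher in 11 of 12 genes (median log2 fold change 0.10). Of these, 2 were at an unadjusted limma p under 0.05, and without WT replicates 1 and 2 the count of higher genes was 8 of 12. Foxo4 had a mean of 19.4 ± 1.26 over Tnfr1-/- mice (SD, n = 6) against 17.0 ± 0.67 over WT mice (SD, n = 5; limma adjusted p = 0.36). Its groups did not overlap (18.02 to 21.1 and 15.9 to 17.7), which held for 1 of 12 genes against 1.49% of all genes. Bcl6, a transcriptional repressor, was at 5.34 ± 0.67 and 3.61 ± 1.52 (limma adjusted p = 0.43). Foxo3 (33.1 ± 3.41 and 29.9 ± 1.45) and Txnip (350 ± 53.6 and 309 ± 32.3) had limma adjusted p of 0.59 and 0.65.

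Partners and opponents of the proteins were also without calls. Of 15 genes of the CCR4-NOT complex and related poly(A) factors, 9 were higher and 6 lower, with Cnot4 (10.9 ± 0.64 and 9.76 ± 0.80) alone at an unadjusted limma p under 0.05. Of 17 G1 cyclins, CDKs, RB and E2F genes, 7 were higher and 10 lower, with 4 at an unadjusted limma p under 0.05 (E2f6 higher; Ccnd1, E2f4 and Rbl1 lower). Cyclin D1 (Ccnd1), the partner of CDK4 and CDK6, was at 49.2 ± 3.10 in Tnfr1-/- and 58.3 ± 8.61 in WT (limma adjusted p = 0.47). Of 8 genes of the ubiquitin ligases that degrade p27, 4 were higher and 4 lower, with 1 at an unadjusted limma p under 0.05. That gene, Skp2, which marks p27 for destruction, was at 5.85 ± 0.42 and 4.85 ± 0.49 (limma adjusted p = 0.40).

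Among 4 further genes with Btg or Cdkn names, Cdkn3 and Cdkn2b were tested, and Btg4 and Cdkn2a were under the filter. Cdkn3, a phosphatase that acts on CDKs and is itself abundant in dividing cells, had a mean of 15.4 ± 1.23 over Tnfr1-/- mice (SD, n = 6) against 19.1 ± 1.65 over WT mice (SD, n = 5). The groups did not overlap (14.1 to 16.9 and 17.4 to 21.0), as for 0.769% of all genes in that direction, and the limma adjusted p was 0.29. Cdkn2b, the INK4 gene induced by TGF-beta, was at 47.3 ± 7.52 and 56.6 ± 7.49 (limma adjusted p = 0.53). Both lay opposite to Tob2, and both had an unadjusted limma p under 0.05 (2 of 2, against 5.17% of all genes for lower genes). For Cdkn2b that p was 0.049, near the cutoff. The count was 1 of 2 under quantile normalization and without WT replicate 3, 4 or 5 or Tnfr1-/- replicate 1, 2, 5 or 6. Of 12 SMAD and ID genes, which pass on TGF-beta and BMP signals, 5 were higher and 7 lower, a balance that turned to 8 and 4 with columns rescaled to TPM, with Smad6 (9.03 ± 0.72 and 10.1 ± 0.82) at an unadjusted limma p under 0.05.

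Immediate early and heat shock genes, read as a sign of how tissue was handled and because Btg2 is an early-response gene, were 7 higher and 13 lower. At an unadjusted limma p under 0.05, 3 of 20 were higher and 4 lower, and in 3 of 20 the groups did not overlap (1.49% of all genes). Hspa1b had a mean of 54.2 ± 18.3 over Tnfr1-/- mice (SD, n = 6) against 22.8 ± 3.19 over WT mice (SD, n = 5; limma adjusted p = 0.23), and Hspa1a at 23.9 ± 10.6 and 9.45 ± 1.14 (limma adjusted p = 0.30). These are near-identical copies whose reads can be split between them, so neither value stands alone. Dnajb1, their co-chaperone, was at 32.0 ± 5.71 and 24.3 ± 0.77 (limma adjusted p = 0.40), and Jund at 78.5 ± 4.00 and 91.8 ± 9.92 (limma adjusted p = 0.40). The part of handling in the members' values was not tested.

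**Figure D5:**
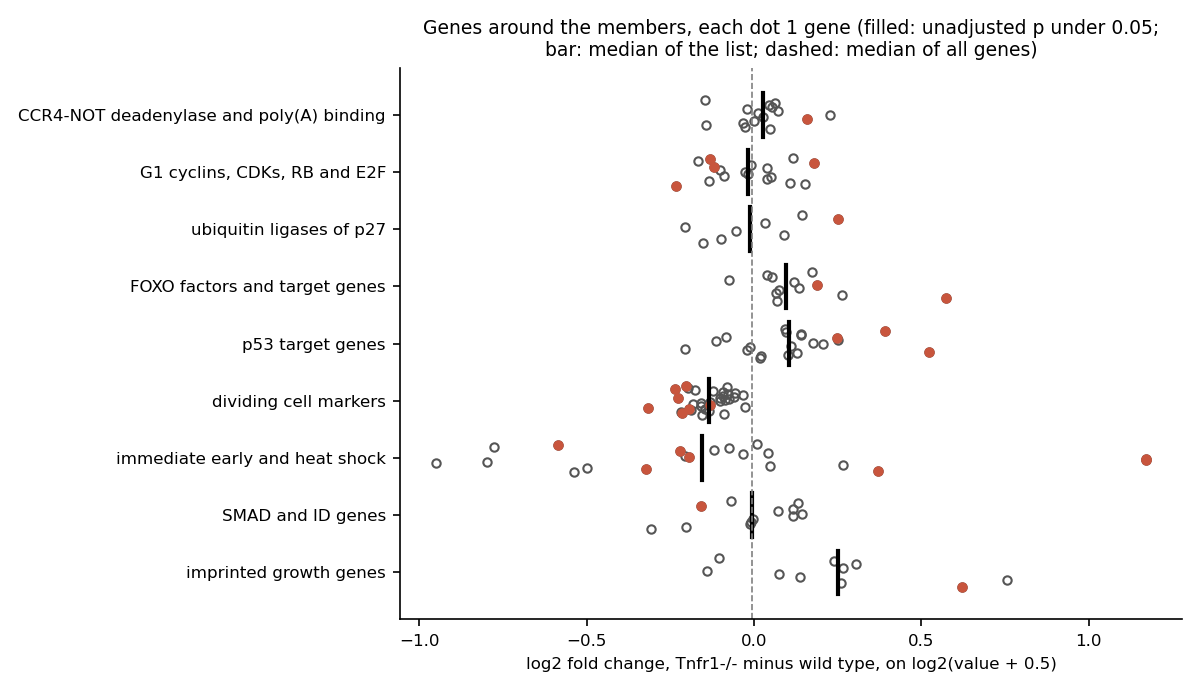
Log2 fold change, Tnfr1-/- minus WT, of the genes in each list around the members, with 1 dot for each gene, filled where the unadjusted limma p is under 0.05, and a bar for the list's median. The 32 dividing-cell markers lie to the left of 0, most p53 targets (15 of 20) and FOXO genes (11 of 12) to the right, and 0 genes pass after adjustment.

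The sequence before the members' starts was searched for common promoter motifs. RefSeq windows of 250 bases before the gene start (GRCm38.p6) were matched for 9 of 10 members and searched on both strands. A gene can have more than 1 window (the 9 members have 12), so a gene is counted where any of its windows holds the motif. The CCAAT box was found in 6 of 9 members and in 37.5% of all 27025 genes, and GGGCGG, the core of a GC box, in 9 of 9 and in 35.4%. The RefSeq start of Tob2 lies inside its main transcript, so 159 bases of its window are transcribed, and both of its GGGCGG matches lie there and not before the transcript's start. TATAAA was found in Btg1 and Tob1 (14.3% of all genes), TGTTTAC, a core FOXO and forkhead sequence, in Btg1 (3.54%), and TGACGTCA, the CRE, in Btg2 (1.77%). The window of Cdkn1b is shown because its CCAAT and GGGCGG matches, in capitals, include the motifs most shared among the members. A match is a description of letters and not of binding.
Cdkn1b, chr6:134920151-134920400, plus strand: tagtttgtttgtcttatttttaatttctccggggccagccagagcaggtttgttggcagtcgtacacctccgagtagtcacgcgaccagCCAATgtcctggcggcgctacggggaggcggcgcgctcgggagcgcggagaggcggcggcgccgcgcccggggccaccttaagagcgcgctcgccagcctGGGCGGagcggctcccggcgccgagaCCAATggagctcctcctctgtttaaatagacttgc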

How the data were processed

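Per the labels' protocols, RNA came from colons homogenised in Trizol, by a column kit, and went into stranded mRNA libraries sequenced as single-end reads of 75 bases. CASAVA, kallisto and sleuth, with the build mm10, are named in the submitters' processing notes; the versions are not given in the sources used here. The deposited value per library was taken as a normalized signal, TPM scaled between libraries in the form sleuth writes. This was inferred from the values and the tools named, since no header states it. The file headers give only short column names. From these, the authors' p-value and q-value columns were taken as tests of each transcript and their fold change as a log2 ratio. The deposited mean was taken as a natural log (ln) of normalized estimated counts, the form sleuth writes. That each library's depth is not in the table limits precision statements to the spread between mice. The column sums of the deposited values were 934563 to 1055498.

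The table had 113991 lines for 113193 transcripts; 584 transcripts repeated with the same values were kept once. The 97 transcripts without a gene (0.031% of the sum) were left out, and 0 columns were unmapped. Values were summed per gene. Genes or transcripts with a value of at least 1 in at least 5 libraries were tested on log2(value + 0.5), which understates changes of low genes, by the moderated test of limma 3.58.1, its variance trend on, in R 4.3.3. Tests were two-sided with Benjamini-Hochberg adjustment over all 15079 genes or 33276 transcripts. Scores and correlations used Python 3.11.15, numpy 2.4.6, pandas 2.3.3 and scipy 1.17.1, and figures used matplotlib 3.10.9. Positions are from GENCODE M21 (GRCm38), and starts from RefSeq.

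The 10 genes and the lists around them were chosen with earlier results of these data known. Named genes are the members, Tnfrsf1a, up to 4 genes with the smallest p in each pathway list, and the 5 genes most like Tob2 and Cdkn1b; others were named after their values were seen. The comparison of genotypes was tried on simulated data with 15079 genes of the real means and spreads and independent noise. On average over 5 simulations it called 71.4% of 100 changes of 1.5-fold and 88.6% of 100 of 2-fold, and 4.3% of its calls were false. Both sets of changes were planted together, in genes with a mean above 5, which eases the adjusted cutoff. The real data had 1 gene called and so a stricter cutoff, and these rates do not hold for a lone change there. Alternatives were another normalization, columns rescaled to TPM, other filters and pseudocounts, sample weights, a replicate block and leaving out each library. Weighting by length, leaving out WT replicates 1 and 2 together, and the marker scores other than that of dividing cells were chosen after seeing the data.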

Additional observations from a re-analysis of the deposited data

Results flagged for a closer look

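In 140 groups of 5 or 6 libraries checked for a single distant value (genes of the lists, members and scores), 5 had one, and chance alone gives about 1 in 20, here 7. Rbl1, an RB relative, was at 12.2 in WT replicate 1, with the next WT library at 10.9. Ubac1, a subunit of a p27 ubiquitin ligase, was at 65.0 in Tnfr1-/- replicate 2, with the next at 51.6. Bcl6 was at 6.62 in Tnfr1-/- replicate 2, with the next at 5.40. Cdc20 was at 20.4 in Tnfr1-/- replicate 5, below the next at 22.9. The score of FOXO factors and targets was 0.24 in Tnfr1-/- replicate 5, with the next at 0.07. None of the 10 members had such a library.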

How the results depend on the processing

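The 8 relatives gave 0 calls under all 20 other settings. Genes called numbered 3 with sample weights and 1 to 2 when 1 library was left out (2 without WT replicate 1). Transcripts called numbered 1 to 10 when 1 library was left out (10 without WT replicate 2, 6 without WT replicate 4 or 5, 1 without Tnfr1-/- replicate 3 or 5 or WT replicate 1), and 5 without both WT replicates 1 and 2. Members related to the dividing-cell score numbered 2 (Tob2 and Cdkn1a) under quantile normalization and 0 to 1 when 1 library was left out. The cause was not tested. With the replicate number as a block, 1 gene and 2 transcripts were called. Same-numbered libraries correlated between -0.22 and 0.38, and 2 of 5 WT libraries were most like their own number. The labels give no pairing, and such correlations cannot settle whether the numbers pair the mice.

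Signs of small log2 fold changes turned. Btg1 was 0.00699 under quantile normalization, 0.038 with sample weights, 0.0825 without WT replicates 1 and 2, and -0.0623 to 0.0369 with 1 library left out. With sample weights Btg3 was -0.14, Cdkn1c -0.18 and Cdkn2d -0.00091. Without WT replicates 1 and 2, Cdkn1c was -0.18, Cdkn2d -0.0845 and the shorter Cdkn1b transcript 0.0302. With 1 library left out, Btg2 ran from -0.0668 to 0.0647, Cdkn1c from -0.0343 to 0.22, Cdkn2d from -0.0303 to 0.0953 and the Cdkn1b sum from -0.0085 to 0.0419. The Cdkn1b sum weighted by length was 0.15. Correlations with the dividing-cell score turned for Tob1 (-0.0245 under quantile normalization, -0.32 to 0.37 with 1 library left out), Btg2 (-0.0028, and -0.36 to 0.20), Btg3 (-0.0839 to 0.32), Cdkn1c (-0.25 without WT replicates 1 and 2, and -0.44 to 0.21) and Cdkn2d (-0.10 to 0.58).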
